A study of Mus musculus with 4 samples.

Results

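Calreticulin (Calr), calnexin (Canx), BiP (Hspa5), Grp94 (Hsp90b1), the protein disulfide isomerases Pdia3, Pdia4 and Pdia6, the small lumenal proteins Sdf2l1 and Creld2 and the transcription factor Ddit3 were examined in cultured fibroblasts that had received microvesicles from cardiomyocytes. These 10 genes were chosen by name, with earlier results of these data known, and all probes carrying their symbols in the platform annotation were read. There were 11 such probes for 9 of the genes, out of 25697 probes for 16593 genes, and none was found for Sdf2l1, which was not analysed here. The cells were NIH-3T3, an immortalized line of mouse embryonic fibroblasts. The 2 control arrays held RNA of fibroblasts without microvesicles, and the 2 microvesicle arrays held RNA of fibroblasts given microvesicles that had been isolated from cardiomyocyte culture medium, a step the labels call both transfer and transfection. Cells of both kinds were grown in Claycomb medium. The labels give neither dose nor duration, nor what the controls received in place of microvesicles, and do not say whether replicates were separate cultures, so that p-values reflect the spread between the 4 samples alone, which may be technical. All 4 arrays were on 1 chip, where no position was used by both groups, so position and group cannot be told apart.

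Secreted and membrane proteins fold in the endoplasmic reticulum. Calreticulin and calnexin are lectins that hold sugar-bearing chains until they are folded, BiP and Grp94 bind exposed peptide stretches, and the disulfide isomerases form and exchange the bonds between cysteines. When unfolded chains accumulate, the unfolded protein response raises transcription of the chaperone genes through ATF6 and XBP1, which act on the ER stress response element (ERSE), and lowers protein synthesis through the kinase PERK. The PERK arm and other stresses, such as lack of amino acids, raise ATF4, which acts on C/EBP-ATF response elements (CARE), and Ddit3, also called CHOP, is a known target of it.

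The ERSE is shown first because the promoters of these genes largely share it. It was searched as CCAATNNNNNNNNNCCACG on both strands, from 250 bases before to 50 after each start site in the RefSeq promoter table (GRCm38.p6), in which all 10 genes were found. It was present in 6 of the 10 promoters, those of Calr, Canx, Hspa5, Hsp90b1, Pdia6 and Creld2, against 0.119% of all 32851 promoters (39). The element is one known for chaperone genes and the genes were chosen by name, so this share is a description and not a test. In the stretches that follow, read along the strand of each gene, capitals mark the fixed bases of the element, and coordinates are those of GRCm38.p6. It read in the reverse direction in Calr, in Creld2 and in the second element of Hsp90b1.
Calr (chr8:84847075-84847093, minus strand): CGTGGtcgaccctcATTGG
Canx (chr11:50325800-50325818, minus strand): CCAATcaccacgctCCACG
Hspa5 (chr2:34772025-34772043, plus strand): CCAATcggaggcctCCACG
Hsp90b1, element farther from the start (chr10:86705638-86705656, minus strand): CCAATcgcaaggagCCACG
Hsp90b1, element nearer to the start (chr10:86705533-86705551, minus strand): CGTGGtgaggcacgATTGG
Pdia6 (chr12:17266491-17266509, plus strand): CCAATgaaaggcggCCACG
Creld2 (chr15:88819520-88819538, plus strand): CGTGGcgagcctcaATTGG

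The elements ended between 47 bases (Hspa5) and 194 bases (the outer element of Hsp90b1) before the start site, and that of Calr ended 144 bases before it. The ERSE-II (ATTGG and CCACG with 1 base between them), the UPR element (TGACGTGG) and the CARE (TGATGNAA), searched in the same way, were found in 0 of the 10 windows, against 0.0365%, 0.676% and 3.97% of all promoters. The bases CCAAT alone, which are part of the ERSE, were in all 10 windows and in 37.4% of all promoters, and CCACG, part of the ERSE, the ERSE-II and, in reverse, the UPR element, in 8 and in 32.8%. A match describes these letters only, and an element outside the window or with a changed base was not counted.

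**Figure D1:**
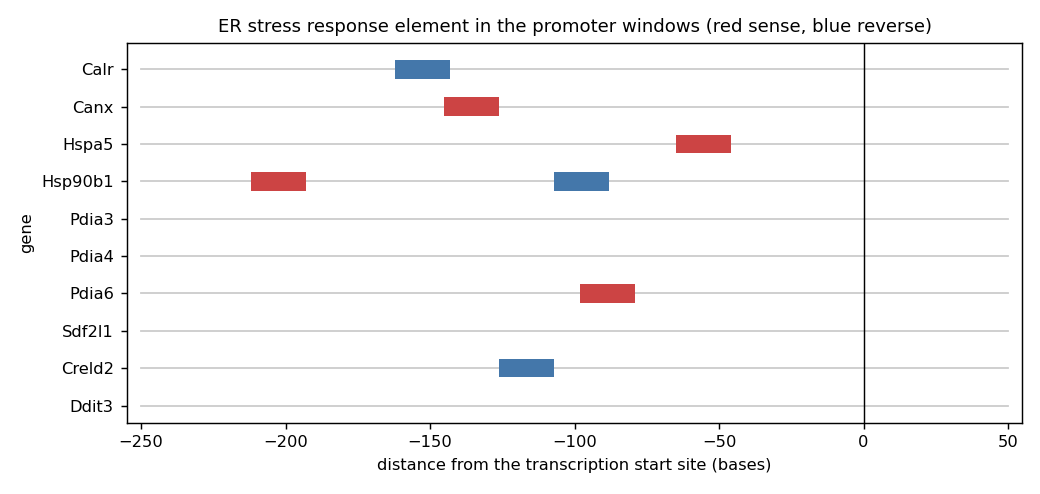
Position of each ERSE match (bars of 19 bases, red along the strand of the gene and blue in reverse) in the promoter windows of the 10 genes, with distance from the transcription start site in bases on the x axis. There were 7 matches in 6 genes, 2 of them in Hsp90b1, and none in Pdia3, Pdia4, Sdf2l1 or Ddit3.

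The 250 bases before the start site are shown for Calr and Ddit3, the only 2 of the 10 genes with a probe bright enough to be tested. The Calr sequence lies at chr8:84846932-84847181 and that of Ddit3 at chr10:127290543-127290792, on the minus and plus strand of GRCm38.p6. Capitals again mark the fixed bases of the ERSE, and the Ddit3 sequence has no match.
Calr: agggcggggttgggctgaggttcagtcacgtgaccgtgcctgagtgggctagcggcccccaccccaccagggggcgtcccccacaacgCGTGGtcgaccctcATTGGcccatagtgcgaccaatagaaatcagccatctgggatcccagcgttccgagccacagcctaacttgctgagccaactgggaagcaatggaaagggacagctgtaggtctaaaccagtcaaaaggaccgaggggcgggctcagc
Ddit3: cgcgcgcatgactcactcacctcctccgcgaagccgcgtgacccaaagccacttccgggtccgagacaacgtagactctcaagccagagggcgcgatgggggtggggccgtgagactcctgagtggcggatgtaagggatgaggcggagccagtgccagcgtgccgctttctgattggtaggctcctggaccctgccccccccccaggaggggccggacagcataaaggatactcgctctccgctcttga

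The arrays were dim. Their median brightness was 39.9 to 41.2, the lowest brightness of a probe called detected (detection p under 0.05) was 44.2 to 46.4, and 3757 to 5272 probes were detected per array. Control replicates 1 and 2 had a 95th percentile of 76.2 and 115, and those with microvesicles had 75.1 (replicate 1) and 59.6 (replicate 2), so arrays differed in brightness within each group. Testing was limited to the 3762 probes detected by both arrays of either group, which covered 18.6% of the genes on the array and 2 of the 9 genes examined (22.2%). Of the fibroblast markers, 7 of 13 on the array were detected on both arrays of each group, among them Col1a2, Col3a1 and Vim, while Col1a1 was detected on none. Most of the summed normalized signal of that list came from the 2 probes of Sparc. With Sparc it was 1369 and 1534 in controls and 2821 and 1942 with microvesicles, and without it 374 and 337.5 in controls and 453.5 and 394 with microvesicles, and its part in the results below was not tested. Col1a2 had a log2 fold change of -0.75 (limma adjusted p = 0.0528), Col3a1 of -0.056 and Vim of 0.53, none of them past the threshold. The only fibroblast marker called was Sparc, higher with microvesicles on 1 of its 2 probes (log2 fold change 0.82, limma adjusted p = 0.0469). Its other probe was at 0.77 and did not pass (limma adjusted p = 0.132). Of 31 cardiomyocyte markers on the array, 23 were detected on no array, Nppa and Actc1 among them. Tnnc1 was detected on all 4 arrays, Des, Eno3 and Ldb3 on both controls and neither microvesicle array, and Myh6, Myl4 and Nkx2-5 on 1 microvesicle array and no control. Mb was detected on 1 array of each group. The summed signal of the cardiomyocyte list was 130 to 136 in controls and 116 to 136 with microvesicles.

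Calr was higher with microvesicles. Its probe had a brightness of 47.2 and 49.9 in the controls and 86.9 and 63.8 with microvesicles, and it was detected on all 4 arrays. Both microvesicle arrays lay above both controls before any normalization. The control values were near the limit of detection, 1.02 and 1.08 times the lowest detected brightness (detection p of 0.0351 and 0.00627), against 1.97 and 1.42 times with microvesicles. The standard error over the beads of the probe was 4.03% to 5.84% of its brightness, background included. In control replicates 1 and 2 Calr lay only 6.02 and 8.74 above the array median, with bead standard errors of 2.02 and 2.91. Among all probes of an array, 85.0% and 85.8% were dimmer than Calr in the controls and 95.9% and 95.5% with microvesicles. Multiplying an array by a constant does not alter such a place. Quantile normalization keeps these places, so they are not independent of the normalized values below.

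After background correction and quantile normalization the log2 signal of Calr was 4.50 and 4.53 in controls and 6.16 and 6.04 with microvesicles. The means were 4.51 ± 0.02 and 6.10 ± 0.09 (SD, n = 2), a log2 fold change of 1.59 (SE 0.17, 95% interval 1.18 to 1.99, limma adjusted p = 0.00485), or 3.01-fold. Only 23 of the 3762 probes tested had a larger rise. An offset of 16 added before log2 compresses this value. In the submitters' processed table, on a linear scale with background subtracted, Calr was 5.94 and 6.34 in controls and 58.8 and 51.0 with microvesicles. The log2 fold change was 0.75 without background correction and 0.85 with an offset of 50, both past the threshold. Both lie below the 95% interval of the reported setting, so the size of the rise depended on the treatment of background and on the offset. When quantile normalization was replaced by median scaling over all probes, the log2 fold change was 1.09 (limma adjusted p = 0.444). The median probe was then at -0.39 and Calr 1.49 above it. No single array could be left out without losing the call, the log2 fold change then ranging from 1.30 to 1.80 (limma adjusted p = 0.0542 to 0.269).

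Ddit3 had 2 probes, annotated to the same transcript, which read differently. Its bright probe (ILMN_2652909) had a brightness of 203 and 371 in the controls and 287 and 187 with microvesicles, detected on all 4 arrays. Before normalization the groups overlapped, with the highest and the second lowest value in the controls. The order of the 4 values was not that of the groups, and the array with the highest 95th percentile of brightness, control replicate 2, gave the highest value. By place among all probes of an array, 98.5% and 98.4% were dimmer in the controls and 99.1% and 99.0% with microvesicles.

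The normalized log2 signal of this Ddit3 probe was 7.64 and 7.60 in controls and 8.37 and 8.34 with microvesicles. On that scale the groups did not overlap, the means being 7.62 ± 0.03 and 8.36 ± 0.02 (SD, n = 2). The log2 fold change was 0.73 (SE 0.17, 95% interval 0.33 to 1.13), or 1.66-fold, and passed narrowly (limma adjusted p = 0.0445). Aligning the medians of all probes turned it to -0.22 (limma adjusted p = 0.791), and aligning those of the tested probes gave 0.22 (adjusted p = 0.701), in both cases 0.17 above the median probe. In the submitters' processed values the difference was 0.71 and did not pass (limma adjusted p = 0.0587). Leaving out any single array ended the call as well, the log2 fold change then lying between 0.68 and 0.76. The other probe (ILMN_2927373) had a brightness of 45.9, 44.2, 43.7 and 43.4 in control replicates 1 and 2 and microvesicle replicates 1 and 2 and was detected on none of the arrays. Its normalized difference was 0.0072, so that the rise of Ddit3 rests on 1 probe.

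**Figure D2:**
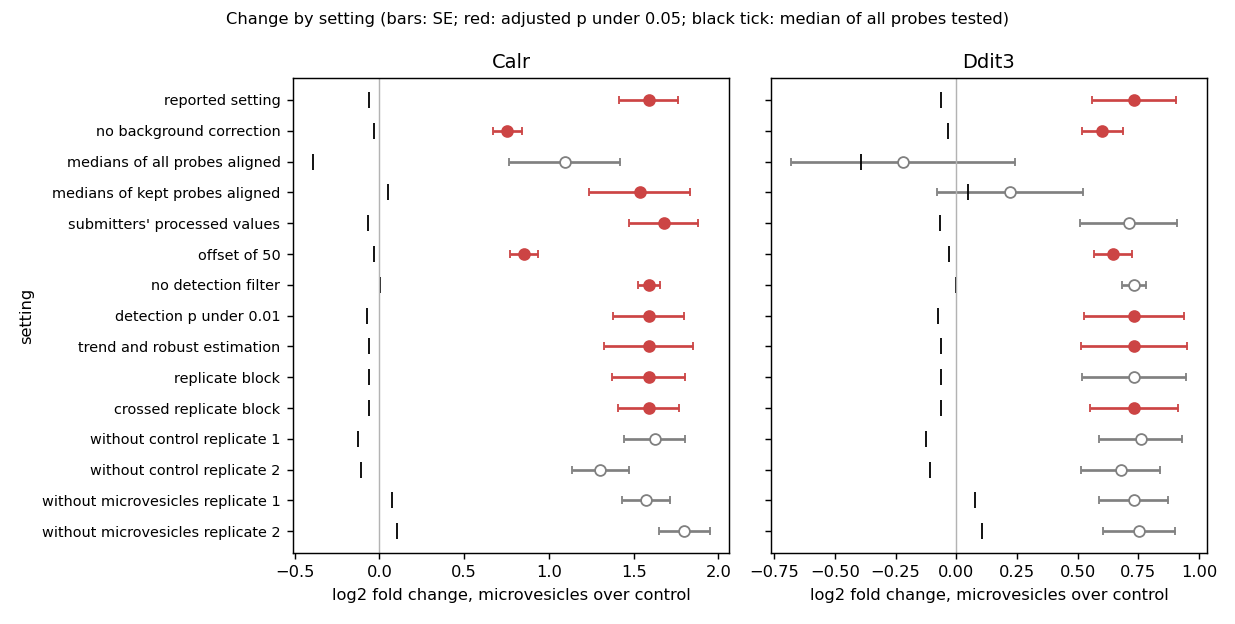
Log2 fold change (microvesicles over control, x axis) of Calr and of the bright Ddit3 probe in the reported setting and in each alternative (y axis), with bars for the SE, red for an adjusted p under 0.05 and black ticks for the median of all probes tested. Calr stayed above 0 throughout, from 0.75 to 1.80, while Ddit3 went from -0.22 to 0.76.

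The remaining genes were at background. Of the 11 probes, 8 were detected on no array, among them all probes of Canx, Hspa5, Pdia3, Pdia4, Pdia6 and Creld2. Their brightness was 36.4 to 45.9, around the median of all probes, with bead standard errors of 1.59 to 3.65. For BiP, a standard marker of ER stress, it was 39.95 and 36.8 in controls and 38.7 and 39.9 with microvesicles. Calnexin, the membrane-bound partner of calreticulin, had 40.5 and 42.5 in controls and 39.3 and 39.1 with microvesicles. Neither probe gave a signal that could be told from the negative controls in either group. Pdia3, which acts on chains held by calreticulin and calnexin, had 40.4 and 44.4 in controls and 37.7 and 40.2 with microvesicles.

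The other disulfide isomerases were as dim. Pdia4 had a brightness of 40.4 and 42.7 in controls and 39.4 and 36.4 with microvesicles, and Pdia6 of 37.2 and 38.7 and of 38.9 and 39.3. Creld2, a lumenal protein that rises with ER stress, had 2 probes, with 43.4 and 44.0 (controls) and 42.2 and 38.3 (microvesicles) on the first. On the second it had 39.6 and 43.7 in controls and 39.6 and 38.6 with microvesicles. Over the 8 undetected probes the normalized log2 difference was -0.068 to 0.042, values that background sets and that bound no change in the transcripts. At these levels a change was not detectable, and absence of the transcripts is not shown.

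Hsp90b1 stood between. Its brightness was 45.4 and 49.5 in the controls, detected on control replicate 2 only (detection p of 0.0865 and 0.00752), and 36.8 and 39.6 with microvesicles, detected on neither array. Both controls lay above both microvesicle arrays, as they did for the undetected Canx probe. Normalized values did not overlap between groups for 57.5% of the 3762 probes tested. Since 1 control array did not detect Hsp90b1, its probe was not among those tested. With no detection filter its log2 difference was -0.26 (SE 0.066, limma adjusted p = 0.428 over 25697 probes), and no fold is given because its control mean was not above the limit of detection of the microvesicle arrays.

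**Figure D3:**
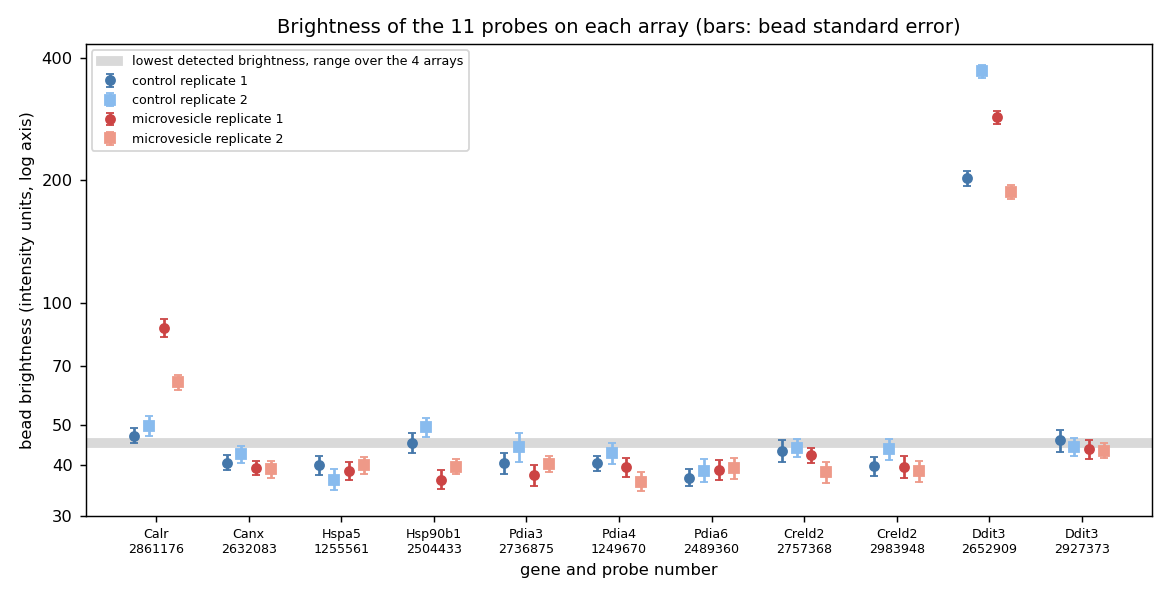
Brightness of the 11 probes (y axis, intensity units, log axis) on each of the 4 arrays, with bars for the standard error over beads, and a grey band for the lowest brightness of a detected probe, 44.2 to 46.4 over the arrays. Calr lies above the band on all arrays and higher with microvesicles, 1 Ddit3 probe lies far above it with groups that overlap, and the others lie in or under it except Hsp90b1 on control replicate 2.

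Of the 2 probes tested both were called higher and 0 lower, where 3.43% of all 3762 probes tested were called higher (129), 4.12% lower (155) and 7.55% in either direction. Under median scaling over the tested probes, 76 were higher and 277 lower. Calr was among the higher (log2 fold change 1.54, limma adjusted p = 2.46e-05) and Ddit3 did not pass. In that setting Calr, Ddit3 and the other genes followed all had the same SE, 0.299. Its p-values therefore take nothing from the spread of a single probe and cannot be set beside those of the reported setting. Calr and Ddit3 were detected in both groups, so neither entered through 1 group alone. At an unadjusted p under 0.05 both also passed, as did 24.8% of all probes tested, and their normalized values did not overlap between groups, as for 57.5% of all (24.9% with the higher values in the microvesicle arrays). With no filter, Calr was the only 1 of the 11 probes to pass (limma adjusted p = 0.0423), and Ddit3 had an adjusted p of 0.063. As the genes were chosen with earlier results of these data known, these counts are descriptions only. In bulk RNA of this kind, fewer cells that express a gene and less RNA per cell cannot be told apart.

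The ERSE did not mark a group that could be followed on these arrays. Of the 37 genes with the element in RefSeq, 18 had a probe and 2 were tested. Calr was among them, and the other was Pan2, which encodes a subunit of a poly(A) nuclease and had a log2 fold change of -0.59 (SE 0.21, limma adjusted p = 0.137).

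The wider machinery of the endoplasmic reticulum was described from lists by role, 156 genes in all, of which 140 were on the array and 48 were tested (34.3%). Of the 48, 2 were higher, 1 was lower and 45 did not pass, 6.25% changed against 7.55% of all probes. Their median log2 fold change was 0.017, against -0.064 for all probes tested. Ostc, a subunit of the oligosaccharyltransferase that attaches sugars to nascent chains, rose by 1.20 (SE 0.17, limma adjusted p = 0.00837). Its log2 signal was 4.81 and 4.72 in controls and 5.95 and 5.99 with microvesicles. The other tested genes of the oligosaccharyltransferase list, Dad1, Rpn2 and Stt3a, had log2 fold changes of 0.015, 0.025 and 0.044, none of which passed. The rise of Ostc was 0.58 without background correction and 0.66 with an offset of 50, both past the threshold, and 0.69 under median scaling over all probes, where it did not pass (adjusted p = 0.445). Ssr2, a subunit of the translocon-associated complex at the site of protein entry, rose by 0.93 (SE 0.20, limma adjusted p = 0.0327), from 7.85 and 7.46 to 8.54 and 8.64. The log2 fold change of Ssr2 was 0.01 under median scaling over all probes and 0.45 under median scaling over the tested probes (adjusted p = 0.373). The thioredoxin-domain gene Txndc11 was at least 1.79-fold lower (limma adjusted p = 0.0237), not detected on either microvesicle array, while its other tested probe was at -0.29 on the log2 scale (adjusted p = 0.399). The fall of Txndc11 did not pass with an offset of 50 (-0.42, adjusted p = 0.0541), without background correction (-0.39, adjusted p = 0.05) or under median scaling over the tested probes (-0.70, adjusted p = 0.13).

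Partners and regulators of the chaperones did not pass in the reported setting. The sensors and their transcription factors (5 tested) had a median log2 fold change of 0.18, with Xbp1 at 0.18 (limma adjusted p = 0.591) and Atf6b at least 1.36-fold lower (adjusted p = 0.104) and not detected with microvesicles. Atf6b passed with trend and robust estimation (adjusted p = 0.0491). Of the integrated stress response, the pathway of ATF4 and Ddit3, 10 genes were tested, 5 with positive and 5 with negative values and a median of 0.037. The largest was that of Cebpb, which encodes a leucine zipper protein that pairs with Ddit3, at 0.77 (adjusted p = 0.11), reversed to -0.17 under median scaling over all probes and past the threshold with trend and robust estimation (adjusted p = 0.0158). Trib3, a known target of Ddit3, was detected on 1 control array and both microvesicle arrays and was at 0.53 (adjusted p = 0.16), and Ppp1r15a, the phosphatase subunit that restores protein synthesis and another target of Ddit3, at 0.25 (adjusted p = 0.427). These 2 genes were chosen after their values were seen, and both are among the 5 with positive values. The lowest of the 10 was Wars at -0.47 (limma adjusted p = 0.158), with its other tested probe at 0.21. Of the co-chaperones and exchange factors of BiP 2 of 10 were tested, both with negative values, the larger in Sil1, an exchange factor for BiP, at -0.53 (limma adjusted p = 0.168).

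The other folding enzymes gave similar counts. Among other disulfide isomerases and oxidases 1 of 6 changed, Txndc11, and P4hb, the founding member of the isomerase family, had 10.31 and 10.17 in controls and 10.40 and 10.22 with microvesicles on the log2 scale, a log2 fold change of 0.069 (95% interval -0.35 to 0.49, adjusted p = 0.83). P4hb was added after its values were seen. The glycoprotein folding enzymes (3 tested) had their largest value in the glucosidase gene Ganab, 0.36 (adjusted p = 0.245), and the 6 tested prolyl isomerases and calcium-binding proteins in the cyclophilin gene Ppic, 0.85 (adjusted p = 0.0725). Both turned negative under median scaling over all probes. Ppic passed in 4 other alternatives, among them the replicate block (adjusted p = 0.045) and trend and robust estimation (adjusted p = 0.00653), and Ganab in none. In ER-associated degradation 0 of 6 passed, with Vcp, which encodes the ATPase that pulls chains out of the membrane, at -0.56 (adjusted p = 0.125). Vcp was at -0.90 and passed under median scaling over the tested probes (adjusted p = 0.0336).

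**Figure D4:**
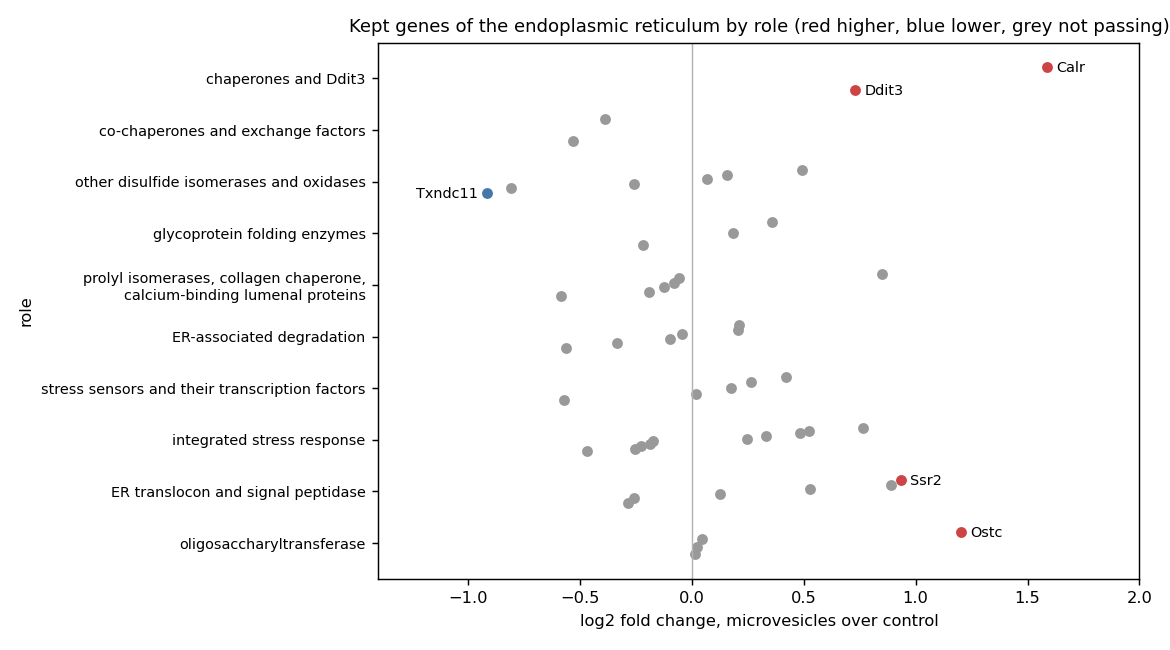
Log2 fold change (microvesicles over control, x axis) of Calr, Ddit3 and the 48 tested genes of the wider lists, 1 point a gene, in rows by role (y axis), red for called higher, blue for called lower and grey for not passing. Calr, Ddit3, Ssr2 and Ostc are red and Txndc11 is blue, and most other points lie within 0.6 of no change.

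Probes whose values over the 4 arrays were most like those of Calr were found by the Euclidean distance of log2 values, each centred on its mean. With 4 arrays this measure mostly finds rises of like size. The nearest were Ddx5, an RNA helicase (distance 0.12, log2 fold change 1.61), Nsdhl, a sterol synthesis enzyme (distance 0.13, at least 2.67-fold higher), and Hspa8, the cytosolic relative of BiP (0.18, log2 fold change 1.66). Get3, the ATPase that delivers tail-anchored proteins to the endoplasmic reticulum membrane (0.19, log2 fold change 1.72), and the histone gene H2ac12 (0.21, log2 fold change 1.43), whose sequence closely resembles other H2A genes, followed. Nsdhl was not detected on either control array, so its distance was measured against background. The other tested probes of Hspa8 and Nsdhl had log2 fold changes of -0.43 (limma adjusted p = 0.278) and 0.31 (adjusted p = 0.33).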

How the data were processed

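Amplified, Cy3-labelled total RNA of 4 samples was read on Illumina bead arrays. The submitters' processing notes name BeadStudio version 3.3, and no source used here gives the normalization of their processed table. The deposited intensity values of the non-normalized table are mean bead brightness, with no background subtracted. The deposited detection p-value sets a probe against the negative controls of its array. Deposited bead numbers and standard errors were used as descriptions. The deposited processed intensity values are linear and background-subtracted.

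In R 4.3.3 with limma 3.58.1, neqc corrected the background with the detection p-values, quantile-normalized with an offset of 16 and took log2. A probe was kept if its detection p was under 0.05 on each array of a group. Groups were compared with lmFit and eBayes (two-sided, Benjamini-Hochberg over 3762 probes, threshold 0.05). The variance of each probe was drawn towards that of all probes tested. SEs, intervals and p-values therefore do not follow from the SDs of a probe alone. Under median scaling over the tested probes the SE was 0.299 for every gene followed, so p-values of that setting ignore the spread of the probe itself. An exact permutation test of 2 against 2 cannot go below 0.333 and was not used. A probe undetected in 1 group has a bound, from the mean of the other group against the higher of its own and the lowest detected signal per array. The test was tried on simulated data with independent noise and no differences in scaling between arrays. That trial does not bear on how the calls depend on scaling.

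Platform symbols (1 for 23978 probes, none for 1719) were matched by Entrez identifier to RefSeq (GRCm38.p6). Promoters were searched in Python 3.11.15. The genes and lists were chosen with earlier results of these data known. The named genes were the 10 above, per list up to 2 that rose and 2 that fell or else the largest change, and the 5 probes most like Calr. List genes used the brightest kept probe. Marker signals were summed after subtracting the offset. Alternatives varied background, scaling, offset, filter, variance estimation, threshold, replicate block and arrays.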

Additional observations from a re-analysis of the deposited data

How the results depend on the processing

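Of all probes, 284 changed in the reported setting. The count was 0 under median scaling over all probes (398 at an unadjusted p under 0.05), 29 with no detection filter, 593 with trend and robust estimation and 67 at adjusted p under 0.01 (limma in each case). Leaving out 1 array gave 0 to 10. Against 2 probes of the genes examined, 0 passed under median scaling over all probes or with any array left out (0 to 0), and 1, Calr, under median scaling over the kept probes, the processed values, no detection filter or adjusted p under 0.01. Against 3 genes of the wider lists, 0 passed under median scaling over all probes or with any array left out (0 to 0), 1 with no detection filter and 1 at adjusted p under 0.01, 5 with detection p under 0.01 and 9 with trend and robust estimation. Under median scaling over all probes Ddit3 reversed to -0.22, Ganab to -0.25, Ppic to -0.086 and Cebpb to -0.17 on the log2 scale. The cause was not tested. Where an array was left out, its group held a lone sample whose spread was taken from the other group, and 4600 to 5464 probes were tested, so calls lost in that way are no measure of stability.

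The labels do not say whether a shared replicate number pairs cultures. The deviations of the replicates from their group means correlated at -0.13 between groups over 3762 probes. With 2 arrays a group this value cannot decide whether the numbers are pairs. With the replicate number as a block, 1 probe of the genes examined passed (Ddit3 had limma adjusted p = 0.0567) and 6 genes of the wider lists. With the pairs crossed, a fit chosen after seeing the data, 2 and 5 passed. The 2 arrays a group, and signals at or under background for most of the genes examined, limit every value.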
